A study of Mus musculus with 24 samples.

Results

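Of the 24 arrays in the series, 6 addressed what loss of STAT6 changes in macrophages that received the PPARγ ligand rosiglitazone (RSG) but no IL-4. They were 3 arrays of Stat6 knockout (KO) bone marrow-derived macrophages, from mice 4 to 6, and 3 arrays of wild-type (WT) macrophages, from mice 1 to 3. Arrays were chosen by the genotype, activation and treatment in their labels. All 6 mice were labelled C57Bl/6, and the cultures were kept for 10 days in M-CSF at 20 ng/ml with RSG at 1 µM. The same mice also gave cultures with vehicle (a mix of DMSO and ethanol) and cultures with IL-4 at 20 ng/ml, with RSG or vehicle, which make up the other 18 arrays. The Stat6-/- mice came from a commercial supplier, per the study's methods, and the gene was disrupted in every cell of the animal and not in macrophages alone. Whether the WT mice came from the same colony was not given in the sources used here.

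STAT6 is the transcription factor that JAK kinases phosphorylate at the IL-4 and IL-13 receptors, after which it enters the nucleus and binds DNA as a dimer. PPARγ is a nuclear receptor that pairs with RXR and, once bound by fatty acids or by a synthetic ligand such as RSG, switches on genes of lipid uptake and storage. In macrophages IL-4 is the best known signal that engages both factors. The cultures compared here had the PPARγ ligand and lacked the cytokine.

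The deposited values were ratios, each probe set divided by its median across arrays, and were used on the log2 scale, so no absolute level was known and levels of different genes could not be compared. Differences are KO minus WT on the log2 scale ± SE from limma, with 3 arrays per group. Calls required an adjusted p below 0.05 together with a 1.5-fold difference or more. The number of arrays limited the precision. The median difference over all 45037 probe sets was -0.09.

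Stat6 itself lay at -1.89, -1.75 and -1.92 on the KO arrays, against 0.81, 0.73 and 0.78 on the WT arrays. It fell by 2.63 ± 0.12 (adjusted p = 2.11e-09), and its other probe set gave -2.51 ± 0.15. The groups stood far apart, and every array matched its genotype label. Where these probes lie relative to the disrupted part of the gene was not examined.

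The labelled cell type was checked against 13 macrophage genes. Their mean log2 ratio lay between -0.14 and 0.13 on the KO arrays and between 0.07 and 0.25 on the WT arrays, and 0 of 13 were called. Of the 13, 11 had a negative difference (84.6%, against 59.6% of all genes). At limma's unadjusted p under 0.05, 2 were lower (15.4%, against 7.02%). Without the KO array of mouse 4 this count was 6 (46.2%, against 8.31%), and without that of mouse 6 it was 1 (7.69%, against 4.91%). Csf1r, the M-CSF receptor, differed by -0.17 ± 0.12 and Adgre1, which encodes F4/80, by -0.20 ± 0.12. The ratios show how these genes compared between genotypes, not how abundant they were. Markers of stromal fibroblasts stood apart. The mean of 18 such genes was 1.31, 1.78 and 5.46 on the KO arrays of mice 4, 5 and 6, against -0.68, 0.07 and -0.84 on the WT arrays of mice 1, 2 and 3. The array of KO mouse 6 also lay alone at one end of the first principal component of the 6 arrays, which held 27.8% of their variance. In these bulk cultures fewer cells of a type and less RNA per cell cannot be told apart.

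Few probe sets passed the test between KO and WT macrophages under RSG without IL-4, and one without a call can still differ. Of 45037 probe sets 45 were called (0.0999%), with 12 higher (0.0266%) and 33 lower (0.0733%) in KO. Quantile normalization gave 39 higher and 51 lower, and centring of the arrays 18 and 28. They covered 5 genes that were higher and 27 that were lower, and 9 of the probe sets had no single gene symbol. With 1 probe set standing for each of 18193 genes, as in the list counts that follow, 4 genes were called higher (0.022%) and 15 lower (0.0824%). The changes ran between 1.51-fold and 41.5-fold. The arrays of the genotypes did not overlap at any of the 45, against 15.1% of all probe sets. The 45 were called on these same arrays, so this lack of overlap is no separate support. At an unadjusted p under 0.05 there were 4297 probe sets (9.54%). Without the KO array of mouse 6, 24 probe sets were called, 16 of them among the 45, and without the WT array of mouse 1, 2 or 3 the counts were 21, 28 and 29. A fit on the 6 arrays alone called 0 by limma, with 2951 at an unadjusted p, and the methods' t-test called 2 after Benjamini-Hochberg adjustment.

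**Figure D1:**
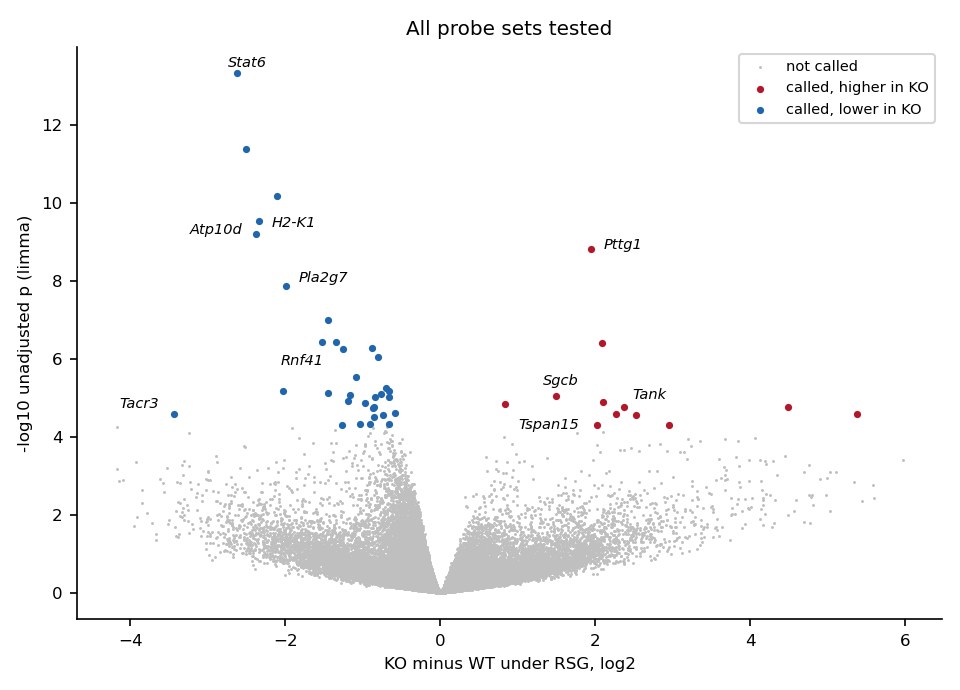
KO minus WT under RSG on the log2 scale (x axis) against -log10 of limma's unadjusted p (y axis) for 45037 probe sets. Of the 45 called probe sets 12 lie to the right, higher in KO, and 33 to the left, with Stat6 at the top.

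Pla2g7 and Atp10d, of the list of phospholipases and phospholipid flippases, fell in KO. Pla2g7 encodes the lipoprotein-associated phospholipase that hydrolyses platelet-activating factor and oxidised phospholipids. It lay at -1.15, -1.23 and -1.16 on the KO arrays, against 0.64, 0.60 and 1.19 on the WT arrays. Every KO array was below every WT array, and the difference was -1.99 ± 0.20 (adjusted p = 8.76e-05). Atp10d, of the P4-type ATPases that flip lipids across membranes, was at -0.94, -1.09 and -1.42 in KO, against 1.12, 1.27 and 1.29 in WT. It fell by 2.38 ± 0.19 (adjusted p = 5.49e-06), again with no overlap. They were the 2 called members among 20 measured phospholipase and flippase genes, whose median difference was -0.27, against -0.10 over all 18193 genes, and -0.15 without the WT array of mouse 3. The list was chosen with earlier results of these data known, and its median includes Pla2g7 and Atp10d. Lpgat1, an acyltransferase of phospholipid synthesis, fell by 0.85 ± 0.15 on 1 of its 5 probe sets. Pla2g7 and Atp10d kept their calls when each of the 6 arrays was left out in turn, with adjusted p at most 0.00127 and 8.59e-05.

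H2-K1, Ifngr2, Cd274 and Wars were also called lower in KO. H2-K1, a heavy chain of MHC class I, lay at -2.41, -2.11 and -2.20 on the KO arrays, against 0.04, 0.20 and 0.07 on the WT arrays. It fell by 2.34 ± 0.18 (adjusted p = 3.32e-06). The other 3 H2-K1 probe sets gave -0.31, -0.47 and -0.23 and were not called, while a probe set listed for both H2-K1 and the related H2-D1 gave -2.11 ± 0.15. These probe sets can share signal between class I genes, so the value is uncertain as a measure of H2-K1 alone. Ifngr2, a chain of the interferon-γ receptor, was at -0.46, -0.37 and -0.999 in KO, against 0.23, 0.16 and 0.39 in WT, a difference of -0.87 ± 0.15 (adjusted p = 0.0261). Cd274, which encodes the checkpoint ligand PD-L1, was at -1.11, -1.16 and -1.45 in KO, against -0.55, -0.22 and -0.39 in WT, a difference of -0.86 ± 0.15 (adjusted p = 0.0351). Both were lower on all 3 KO arrays. Wars, the tryptophanyl-tRNA synthetase that interferon-γ is known to induce, lay at -0.56, -0.58 and -0.61 in KO, against 0.25, 0.14 and 0.26 in WT. It fell by 0.80 ± 0.11 (adjusted p = 0.00282). Of its other 3 probe sets 2 ran the same way and 1 the opposite way, all at an unadjusted p under 0.05. H2-K1 and Wars kept their calls with each array left out, but Wars lost its call without all arrays of mouse 1, 5 or 6. Ifngr2 lost its call in 4 of 6 cases when an array was left out (adjusted p up to 0.123) and Cd274 in 6 (0.054 to 0.195).

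Rnf41, a gene near Stat6, encodes a ubiquitin ligase, and 2 of its 4 probe sets were called lower in KO, at -2.03 ± 0.32 and -1.26 ± 0.16. On the second the KO arrays were at -0.62, -0.75 and -0.67, against 0.42, 0.47 and 0.83 on the WT arrays. This call was kept with each array left out (adjusted p at most 0.0155) and lost without all arrays of mouse 5. Fbxo32, which encodes the F-box protein atrogin-1 known from muscle wasting, lay at -0.81, -0.90 and -1.58 in KO, against -0.11, 0.13 and 0.27 in WT. It fell by 1.19 ± 0.20 (adjusted p = 0.0213). Spop, a substrate adaptor of cullin ligases, fell by 0.97 ± 0.16, and Dtx4, a Deltex-type ubiquitin ligase, by 1.04 ± 0.19 on 1 of 2 probe sets. No KO array overlapped with a WT array, although for Fbxo32, Spop and Dtx4 the array of KO mouse 6 was the lowest. Their calls were lost in 3, 4 and 6 of the 6 cases when an array was left out, with adjusted p up to 0.0969, 0.124 and 0.226.

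The largest named decrease was on 1 probe set of Tacr3, a tachykinin receptor known from neurons. Its values were -2.93, -3.61 and -2.83 on the KO arrays, against 0.29, -0.62 and 1.29 on the WT arrays, a difference of -3.44 ± 0.61 (adjusted p = 0.0319). The other 2 Tacr3 probe sets differed by 0.27 ± 0.74 and 0.12 ± 1.05 with overlapping arrays. The call was lost in 5 of 6 cases when an array was left out (adjusted p up to 0.153).

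Other called decreases spread over many functions. Cacna1a, a calcium channel subunit, lay at -0.72, -0.50 and -1.15 in KO, against 0.82, 0.64 and 0.72 in WT, and fell by 1.52 ± 0.19. Pdpr, a regulator of the pyruvate dehydrogenase phosphatase, fell by 0.88 ± 0.11. Both kept their calls with each array left out, but Cacna1a lost it without all arrays of mouse 1 and Pdpr without those of mouse 5 or 6. Pdpr also lost its call in the fit on the 12 arrays without IL-4. Each was called on 1 of 4 probe sets, and 2 of the other 3 ran the same way. Of these 2, 1 was at limma's unadjusted p under 0.05 for Cacna1a and 0 for Pdpr. Cwc22, a splicing factor, fell by 1.16 ± 0.19, the WD-repeat gene Wdr37 by 1.09 ± 0.16 on 1 of 7 probe sets, and Tpm3, a tropomyosin, by 1.27 ± 0.24 on 1 of 5. Itgb5, the β5 integrin chain, whose αv-containing receptor takes part in the uptake of apoptotic cells, was at 0.03, -0.16 and -0.09 in KO, against 0.59, 0.60 and 0.69 in WT. It fell by 0.70 ± 0.11 (adjusted p = 0.0155) on 1 of its 4 probe sets. Itgb5 was the 1 called gene among 21 scavenger and efferocytosis receptors. Their median was -0.16, with -0.27 without the KO array of mouse 4 and -0.10 without that of mouse 6. Atp6v0d2, a subunit of the vacuolar proton pump, fell by 0.91 ± 0.17 and was the 1 called gene among 11 osteoclast genes, whose median of 0.13 turned to -0.22 without the KO array of mouse 6 and -0.05 without the WT array of mouse 1. Dgka, a diacylglycerol kinase encoded near Stat6, was at -0.65, -0.64 and -0.59 in KO, against 0.04, 0.01 and 0.30 in WT, and fell by 0.74 ± 0.13. The calls of Cwc22, Wdr37, Tpm3, Itgb5, Atp6v0d2 and Dgka were lost in 2 to 6 of the 6 cases when an array was left out, with adjusted p up to 0.219.

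Among the 5 genes that were higher in KO, Pttg1 was called on all 3 of its probe sets. It encodes securin, which holds separase inactive until anaphase. On the probe set with the smallest p the KO arrays were at 0.60, 0.59 and 0.47, against -1.34, -1.22 and -1.64 on the WT arrays. The difference was 1.95 ± 0.17 (adjusted p = 1.11e-05), and the other probe sets gave 2.08 ± 0.26 and 2.10 ± 0.35. KO arrays were above WT arrays on each, and 2 of the 3 probe sets kept their call with each array left out. Of these, the one at 2.08 lost its call without all arrays of mouse 4, 5 or 6. Other cell-cycle genes did not pass the test: of 22 proliferation genes 0 were called, and Mki67 and Top2a differed by 0.23 ± 0.23 and 0.31 ± 0.30. The median of that list was 0.34, with 0.09 without the KO array of mouse 6 and 0.53 without that of mouse 5. In vehicle it was -0.28. Under RSG 18 of the 22 were positive (81.8%, against 40.4% of all genes). At an unadjusted p under 0.05, 3 were higher (13.6%, against 2.71%) and 1 was lower (4.55%, against 7.02%). Without the KO array of mouse 6, 16 were positive and 0 were at that p.

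The other 4 genes were called on 1 probe set each. Tank, an adaptor of TRAF signalling, was at -0.24, -0.59 and 0.41 in KO, against -3.04, -3.18 and -1.32 in WT, a difference of 2.37 ± 0.40 (adjusted p = 0.0251), while its other probe set gave 0.07 ± 0.30. Tspan15, a tetraspanin, was at 0.10, 0.18 and 0.48 in KO, against -1.66, -1.85 and -1.82 in WT, a difference of 2.03 ± 0.38 (adjusted p = 0.0497). Sgcb, the β-sarcoglycan of the dystrophin complex, was at 0.75, 0.91 and 1.19 in KO, against -0.46, -0.43 and -0.73 in WT, a difference of 1.49 ± 0.24 (adjusted p = 0.0179). Its other 2 probe sets ran the same way, 0 of them at limma's unadjusted p under 0.05. On the called probe sets of Tank, Tspan15 and Sgcb the KO arrays were above the WT arrays. Pdk1, the kinase that inactivates pyruvate dehydrogenase, was at 0.50, 0.46 and 0.56 in KO, against -0.43, -0.23 and -0.33 in WT, and rose by 0.83 ± 0.14 (adjusted p = 0.0229). A further Pdk1 probe set gave 0.87 ± 0.20 without a call, and 2 more gave 0.14 and 0.21. The calls of Tank, Tspan15, Sgcb and Pdk1 were lost in 4, 6, 4 and 5 of the 6 cases when an array was left out, with adjusted p up to 0.150, 0.211, 0.0954 and 0.120.

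**Figure D2:**
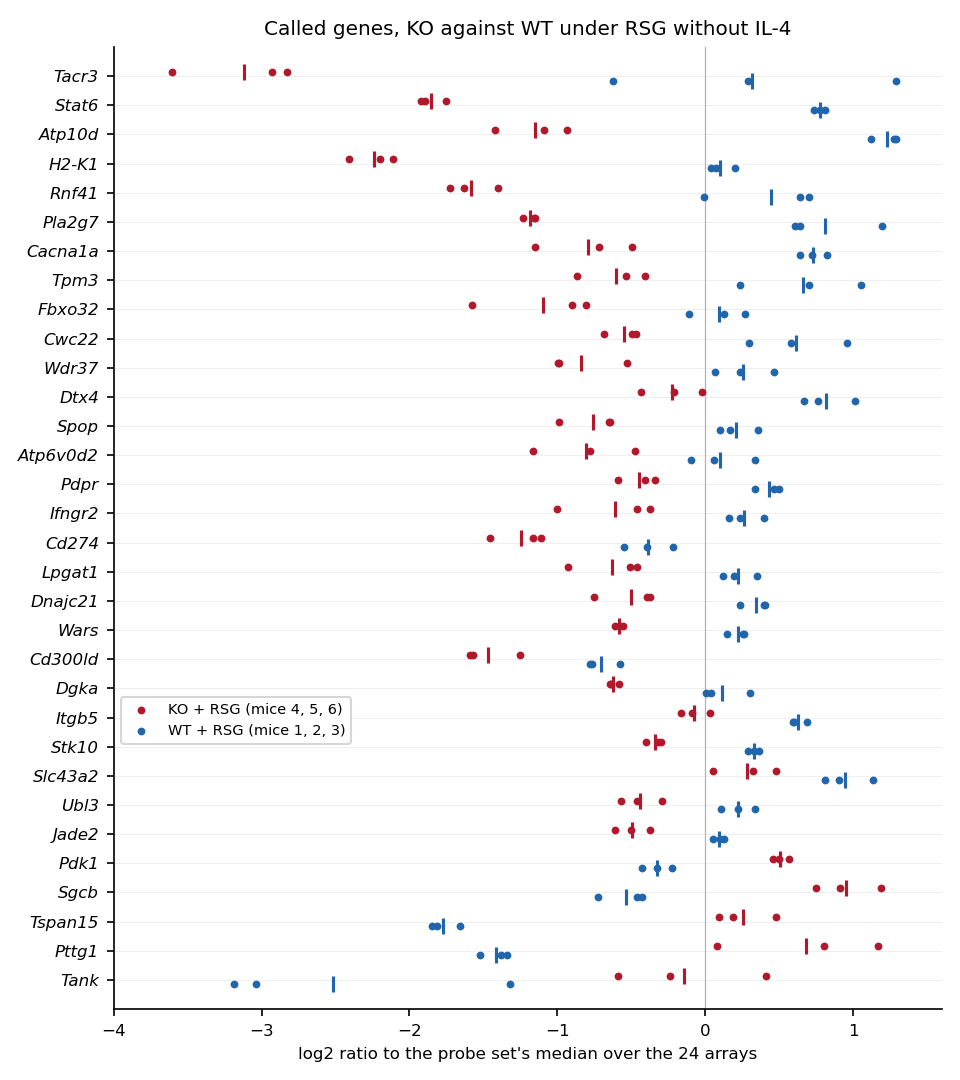
Log2 ratio to the probe set's median over the 24 arrays (x axis) for the 32 called genes, each on its called probe set with the largest change. Dots are arrays, ticks are group means, and KO with RSG (red) is drawn above WT with RSG (blue); the colours do not overlap for any gene.

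Probe sets of the same gene often differed in their call. Of the 32 called genes 9 had 1 probe set, and among the other 23 all probe sets were called for 2, Stat6 and Pttg1, and 2 of 4 for Rnf41. The called genes had 53 further probe sets, of which 42 differed in the same direction, 16 of these at an unadjusted p under 0.05, and 1 ran the opposite way at that p.

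STAT proteins bind palindromes with TTC and GAA arms, and STAT6 is known to favour a spacer of 4 bases where other STATs favour 3. Promoters from 250 bases before to 50 after the start were searched for a TTC and a GAA arm with any 4 bases between them, the STAT6-type motif, and with any 3, TTCNNNGAA. Each reads the same on both strands, and matches to the motifs may overlap. The first was in 834 of 14452 promoters of genes on the array (5.77%) and the second in 1053 (7.29%). Among the called genes with a promoter listed, the STAT6-type motif was in 1 of 20 that were lower, Ifngr2, and in 1 of 5 that were higher, Sgcb. TTCNNNGAA was in 1 of the 20, Pla2g7, and in 0 of the 5. Among 18 interferon-stimulated genes each motif was in 4 (22.2%). A match describes letters and is not a binding site. The 250 bases before the start of Pla2g7, Ifngr2 and Sgcb are shown, from RefSeq, because they hold the matches found among the called genes, with the motif in capitals.
Pla2g7, GRCm38.p6 chr17:43568201-43568450, plus strand: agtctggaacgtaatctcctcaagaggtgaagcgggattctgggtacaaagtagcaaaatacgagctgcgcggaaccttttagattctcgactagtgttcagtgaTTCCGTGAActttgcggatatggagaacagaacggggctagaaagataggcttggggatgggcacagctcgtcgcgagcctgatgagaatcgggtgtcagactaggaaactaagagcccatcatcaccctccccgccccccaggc
Ifngr2, GRCm38.p6 chr16:91546809-91547058, plus strand: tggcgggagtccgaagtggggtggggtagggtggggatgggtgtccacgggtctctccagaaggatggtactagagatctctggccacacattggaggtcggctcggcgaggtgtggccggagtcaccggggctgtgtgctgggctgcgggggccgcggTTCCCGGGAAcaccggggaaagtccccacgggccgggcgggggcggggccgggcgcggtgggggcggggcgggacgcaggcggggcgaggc
Sgcb, GRCm38.p6 chr5:73647738-73647987, minus strand: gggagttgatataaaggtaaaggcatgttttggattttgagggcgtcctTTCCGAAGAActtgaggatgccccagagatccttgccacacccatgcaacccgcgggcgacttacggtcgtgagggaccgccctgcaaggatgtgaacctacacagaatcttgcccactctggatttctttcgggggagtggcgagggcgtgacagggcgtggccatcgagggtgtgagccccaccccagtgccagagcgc

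The genotype difference was then read in the other conditions of the same mice. In vehicle without IL-4, 49 probe sets were called (0.109%), and 19 were called in both conditions in the same direction, 42.2% of those under RSG and 38.8% of those in vehicle. Of the 45 probe sets called under RSG, 40 had the same sign in vehicle, 38 of them at an unadjusted p under 0.05, and 1 was called in the opposite direction. With IL-4, 9003 probe sets were called under RSG (20%) and 10920 in vehicle (24.2%). They took in 35 and 32 of the 45 in the same direction. These comparisons use different arrays of the same 6 mice and are not independent in their animals.

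In all, 17 probe sets were called in the same direction in all 4 conditions, 14 lower and 3 higher in KO, and they belonged to 12 named genes. Besides Stat6, those lower were Atp10d, H2-K1, Pla2g7, Rnf41, Cwc22, Wdr37, Cd274, Wars and Itgb5, and those higher were Pttg1 and Pdk1. Over the 4 conditions the difference lay between -2.14 and -1.58 for Pla2g7, between -2.60 and -2.06 for Atp10d and between 0.74 and 0.87 for Pdk1. For Pttg1 it was 1.95 under RSG without IL-4 and 3.54 under RSG with IL-4.

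**Figure D3:**
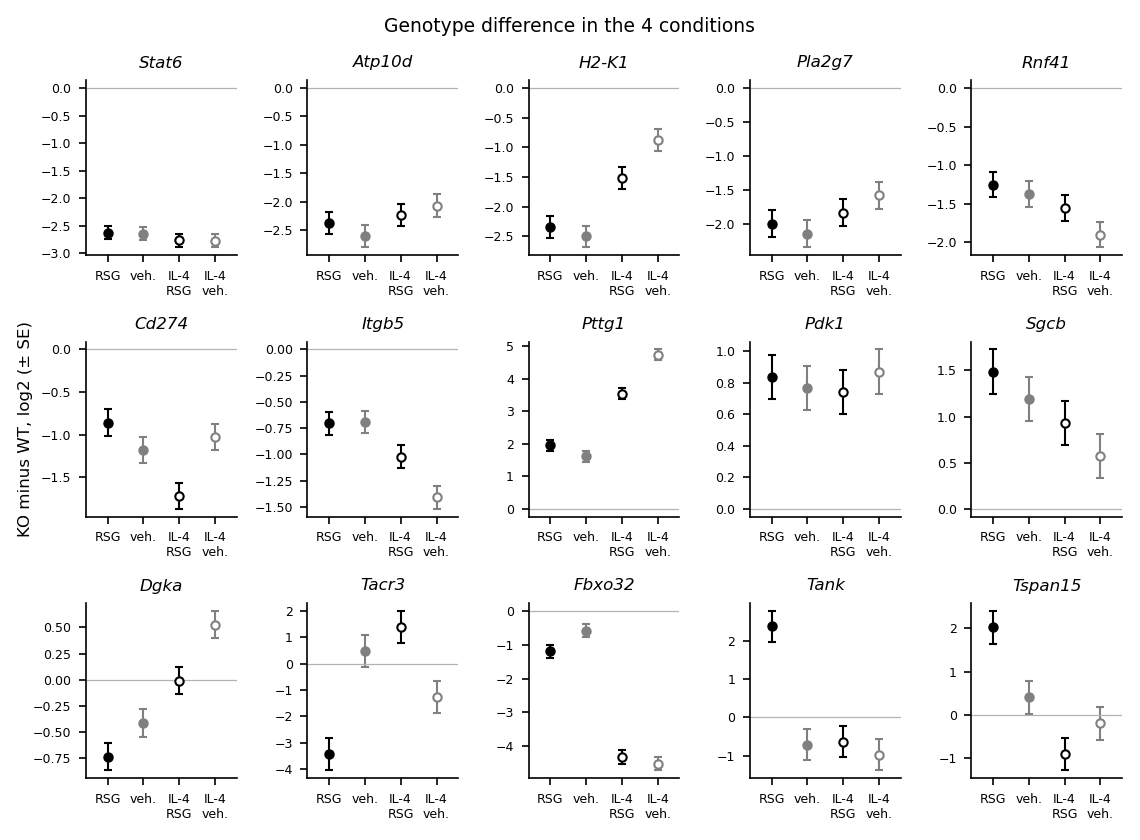
KO minus WT on the log2 scale ± SE (y axis; scales differ between panels) for 15 genes under RSG and in vehicle (filled) and with IL-4 added (open), 3 arrays per group. Pla2g7 lies between -2.14 and -1.58 and Pdk1 between 0.74 and 0.87 over the 4 conditions, while Tacr3, Tank and Tspan15 lie farthest from 0 under RSG without IL-4, at -3.44, 2.37 and 2.03.

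A call under RSG with none in vehicle, as for 25 of the 45 probe sets, does not show that the genotype difference depended on RSG. That dependence was tested directly, and 5 probe sets were called (0.0111%), 2 of them among the 45. For Tacr3 the difference was -3.44 under RSG and 0.49 in vehicle, with an adjusted p of 0.283 for the change between them by limma. For Tank it was 2.37 and -0.72 (adjusted p = 0.173) and for Tspan15 2.03 and 0.40 (adjusted p = 0.718). The 3 named genes called for dependence on RSG were Ptx3, F3 and Sema4b.

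Ptx3, the secreted pattern recognition protein pentraxin 3, lay at 1.51, 0.87 and 3.75 on the KO RSG arrays, against -2.02, -2.14 and -0.75 on the WT RSG arrays. In vehicle the order was turned round, with -3.96, -2.58 and -1.74 in KO, against 0.36, 2.01 and 0.95 in WT. The genotype difference under RSG exceeded that in vehicle by 7.55 ± 1.05 (adjusted p = 0.0199). A second Ptx3 probe set gave 0.69 ± 1.29. F3 encodes tissue factor, which starts coagulation. It was at -1.11, 0.00 and 1.12 in KO, against -0.77, -2.56 and -1.37 in WT under RSG, and at -2.32, -3.10 and -3.63 in KO, against -0.35, 0.80 and 0.49 in WT in vehicle. The genotypes overlapped under RSG and not in vehicle, and the effects differed by 4.90 ± 0.74 (adjusted p = 0.0325).

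Sema4b, a transmembrane semaphorin, went the other way by -4.67 ± 0.51 (adjusted p = 0.00221). It was at -2.08, -1.25 and -1.93 in KO, against 0.48, 0.70 and -0.71 in WT under RSG, and at -0.13, -0.15 and 0.44 in KO, against -2.74, -3.46 and -1.91 in WT in vehicle. KO was the lower genotype under RSG and the higher in vehicle. A second Sema4b probe set did not show this, at 0.04 ± 0.20. The genotype difference under RSG itself was not called for Ptx3, F3 or Sema4b (adjusted p = 0.0765, 0.311 and 0.0521). The test of dependence on RSG called 2 probe sets without the WT RSG array of mouse 2, and 0 by limma without mouse 1, 2, 4 or 6, with 2136, 2109, 2831 and 2116 at an unadjusted p.

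The remaining 2 probe sets had no gene symbol listed and were the largest increases among the 45. Probe set 1460208_at lay at 2.98, 2.83 and 5.85 on the KO RSG arrays of mice 4, 5 and 6, against -1.38, -1.70 and -1.39 on the WT RSG arrays. Probe set 1418476_at lay at 4.24, 2.56 and 6.23 in KO, against -0.64, 0.54 and -0.34 in WT. In vehicle the WT arrays were the higher ones. There 1460208_at was at -1.18, -2.98 and -2.16 in KO, against 1.33, 3.73 and 0.76 in WT, and 1418476_at at -0.45, -1.20 and -0.22 in KO, against 2.88, 5.42 and 2.32 in WT. The mean of the stromal markers in vehicle was -0.55, -0.75 and 0.11 in KO, against 1.53, 3.27 and -0.58 in WT. The KO RSG array of mouse 6 and the WT vehicle array of mouse 2 were thus the highest in their conditions for both probe sets and for the stromal markers. The same held for Ptx3, at 3.75 and 2.01 on these arrays, and for F3, at 1.12 and 0.80, but not for Sema4b. Without these 2 arrays 3 probe sets were called for dependence on RSG, 2 of them among the 5, and 25 for the genotype difference under RSG. The dependence on RSG was then 6.24 ± 0.97 for Ptx3 and 4.10 ± 0.72 for F3, neither called (adjusted p = 0.0612 and 0.140 by limma), and -4.20 ± 0.52 for Sema4b, which kept its call (adjusted p = 0.00987). The part of the stromal signal in these calls was not tested.

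**Figure D4:**
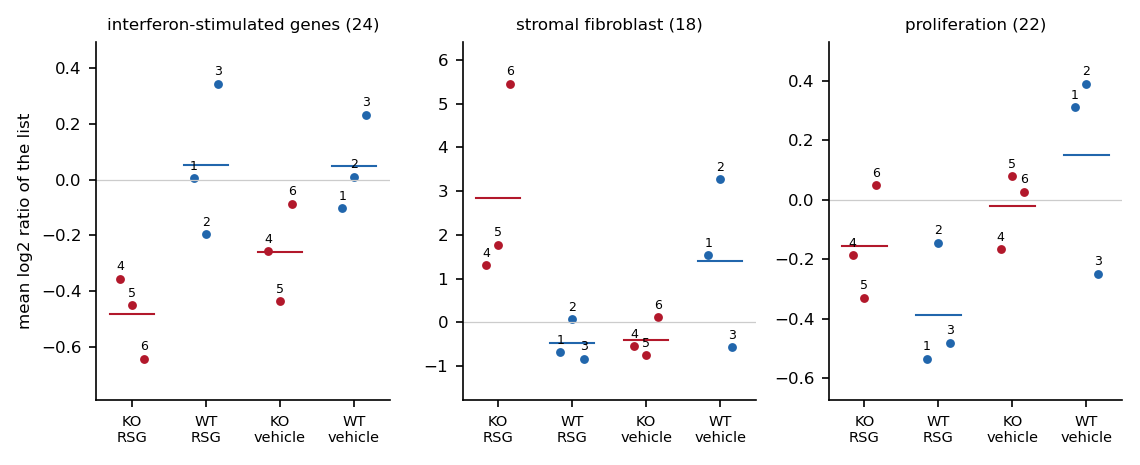
Mean log2 ratio (y axis) of 3 gene lists on the 12 arrays without IL-4, KO in red and WT in blue, with mouse numbers at the dots and lines at group means. Interferon-stimulated genes lie between -0.64 and -0.36 on the KO RSG arrays and between -0.20 and 0.34 on the WT RSG arrays; the stromal list is highest for KO mouse 6 under RSG at 5.46 and for WT mouse 2 in vehicle at 3.27.

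Of the 18 stromal genes 17 had a positive difference under RSG, 14 at an unadjusted p under 0.05 (77.8%, against 2.71% of all genes) and 0 by limma's adjusted p, with a median of 3.46. In vehicle the median was -1.55. The collagen gene Col1a2 was at 2.82, 3.03 and 7.82 in KO, against -0.12, 0.89 and -0.78 in WT. Postn, which encodes the matrix protein periostin, was at 2.61, 2.17 and 2.56 in KO, against -1.29, -1.03 and 0.05 in WT. For Col1a2 and Postn the KO arrays of mice 4 and 5 were also above all 3 WT arrays. Without the KO array of mouse 6 the list's median was 2.39, and 4 genes were at that unadjusted p. Ratios do not show whether any of these markers was at 0 in a culture.

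Interferon-stimulated genes had negative differences, down to -1.70, none of which passed the adjusted p. All 24 measured genes were below 0 (against 59.6% of all genes), 12 of them at an unadjusted p under 0.05 (50%, against 7.02% of all genes) and 0 called by limma. Their median was -0.53 under RSG and -0.23 in vehicle, against -0.10 and -0.07 over all genes. Usp18, the protease that removes ISG15 from proteins, was at -1.67, -1.31 and -1.54 in KO, against -0.79, -0.96 and -0.54 in WT, a difference of -0.74 ± 0.24. Oasl2, of the oligoadenylate synthetase family, differed by -1.01 ± 0.26 and Gbp2, a guanylate-binding protein, by -0.96 ± 0.28. The mean of the list was -0.36, -0.45 and -0.64 in KO, against 0.00, -0.20 and 0.34 in WT, so the groups did not overlap. With quantile normalization or centring of the arrays 23 of 24 were negative, with medians of -0.51 and -0.46. Without the KO array of mouse 6, 22 of 24 were negative and 6 were at the unadjusted p. Without the WT array of mouse 3, 22 were negative, 5 were at that p and the median was -0.30. Under RSG with IL-4 the direction was the opposite, with a median of 1.73 for the list, against -0.21 over all genes.

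Genes that STAT6 and PPARγ are best known for did not pass the test. Of 26 alternative activation genes limma called 0, with 3 higher and 3 lower at an unadjusted p under 0.05 (11.5% each, against 2.71% and 7.02% of all genes). Their median was -0.05, with 0.04 after quantile normalization, 0.35 without the WT array of mouse 3, 0.20 without the KO array of mouse 5 and -0.20 without that of mouse 6, and 1 of them was called without the KO array of mouse 4. Of 21 genes in the PPAR list of lipid uptake and storage limma called 0, with 2 lower at that p (9.52%, against 7.02% of all genes). Their median was -0.11, and 0.04 without the KO array of mouse 6. Fabp4, the fatty acid carrier used as a PPARγ target, lay at -0.30, 0.27 and -0.07 in KO, against 0.07, 0.14 and 0.44 in WT, a difference of -0.26 ± 0.20 (adjusted p = 0.740), and its other 3 probe sets differed by -0.22, -0.60 and -0.03 without a call. Cd36, the receptor for fatty acids and oxidised lipoprotein, differed by -0.26 ± 0.20, Angptl4, an inhibitor of lipoprotein lipase, by 0.13 ± 0.56 and Pparg by -0.06 ± 0.24. The arrays of the genotypes overlapped for these 4 genes. Arg1, arginase 1, was at -4.40, -3.69 and -4.97 in KO, against -3.61, -2.57 and -2.21 in WT, and Retnla, a secreted marker of alternative activation, at -3.04, -2.52 and -3.92 in KO, against -1.45, -1.28 and -1.47 in WT. Neither overlapped and neither passed, with differences of -1.56 ± 1.00 and -1.76 ± 1.29 (adjusted p = 0.667 and 0.727). These SEs pool the spread of all 8 groups, and 1 array outside the comparison stood apart. In WT vehicle, mouse 3 was at 2.19 for Arg1 and 5.88 for Retnla. Mice 1 and 2 were at -3.38 and -2.71, and at -1.89 and -2.10. On the compared arrays the SD was 0.64 in KO and 0.73 in WT for Arg1, and 0.71 and 0.10 for Retnla. No fit left out that array alone, so its part in the SEs is not known. Fits on the 6 compared arrays, which do not include it, had 4 residual degrees of freedom. They gave 0 calls by limma and 2 by the methods' t-test, with neither Arg1 nor Retnla among them. Chil3, Mrc1, Alox15, Pdk4, Scd1, Ccl17 and Irs2 differed by between -0.22 and 1.52 and were not called.

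With IL-4 added, the genotype difference under RSG was -2.36 ± 0.20 for Fabp4, -2.06 ± 0.20 for Cd36 and -1.85 ± 0.24 for Pparg, and it departed from that without IL-4 for each of these 3 (adjusted p = 6.25e-05, 0.00029 and 0.00197 by limma). Angptl4, Chil3, Pdk4, Ccl17 and Irs2 were not called under RSG with IL-4 on the probe sets given above, at -0.47, -0.99, -0.32, -0.36 and -0.19. For the departure 5041 of all probe sets were called (11.2%). Fbxo32 differed by -1.19 without IL-4 and -4.32 with it, and Atp6v0d2 by -0.91 and -2.32.

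The response to RSG was called for 62 probe sets in KO (0.138%) and for 53 in WT (0.118%). Angptl4 was called on 1 of its 2 probe sets, where RSG minus vehicle was 1.74 ± 0.23 in KO and 1.93 ± 0.23 in WT (adjusted p = 0.00348 and 0.00339 by limma). Its response was thus present in both genotypes, and the KO response minus the WT response was -0.19 ± 0.33. On the other probe set the response was 1.34 ± 0.56 in KO and 2.41 ± 0.56 in WT without a call. Cd36 differed between RSG and vehicle by 0.63 ± 0.20 in KO and 0.64 ± 0.20 in WT, and Fabp4 by 0.60 ± 0.20 in KO and 0.13 ± 0.20 in WT, none of these called. Their KO responses minus the WT responses were -0.01 ± 0.28 and 0.47 ± 0.28.

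Of 13 cholesterol efflux genes under LXR control 12 had a negative difference (92.3%, against 59.6% of all genes), 5 at an unadjusted p under 0.05 (38.5%, against 7.02%) and 0 by limma's adjusted p. The median was -0.26, and -0.13 without the KO array of mouse 6. Lipa, the lysosomal acid lipase, was at -0.07, -0.10 and -0.86 in KO, against 0.25, 0.19 and 0.14 in WT, a difference of -0.54 ± 0.16. The KO array of mouse 6 was the lowest. With quantile normalization or centring 10 of 13 were negative, and 2 to 8 genes were at the unadjusted p when 1 array was left out.

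In the IL-4 receptor pathway 1 of 17 genes was called, Stat6, and the median was 0.00, with -0.18 without the WT array of mouse 1. The receptor chain Il4ra differed by 0.14 ± 0.37, and the kinase Jak1 was at -0.47, -0.35 and -0.89 in KO, against 0.55, 0.10 and 0.11 in WT, without a call. Of 11 genes of MHC class II and costimulation 0 were called, with a median of -0.27, which lay between -0.46 without the KO array of mouse 5 and -0.12 without the WT array of mouse 3. The class II chain H2-Ab1 was at -2.85, -2.42 and -2.73 in KO, against -1.84, -1.08 and -1.88 in WT, and its difference of -1.07 ± 0.37 did not pass (adjusted p = 0.335). Within 2 Mb of Stat6, 89 genes were measured and 1 was called, Dgka, which was lower (against 0.0824% of all genes called lower). Their median was -0.10, against -0.10 over all genes, and -0.16 without the WT array of mouse 2. At limma's unadjusted p under 0.05, 11 were lower (12.4%, against 7.02% of all genes) and 2 higher (2.25%, against 2.71%). Without the KO array of mouse 6, 5 were lower at that p (5.62%, against 4.91%). Rnf41 also lies within 2 Mb of Stat6, but the probe set that stood for it in this count was not one of its called ones.

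**Figure D5:**
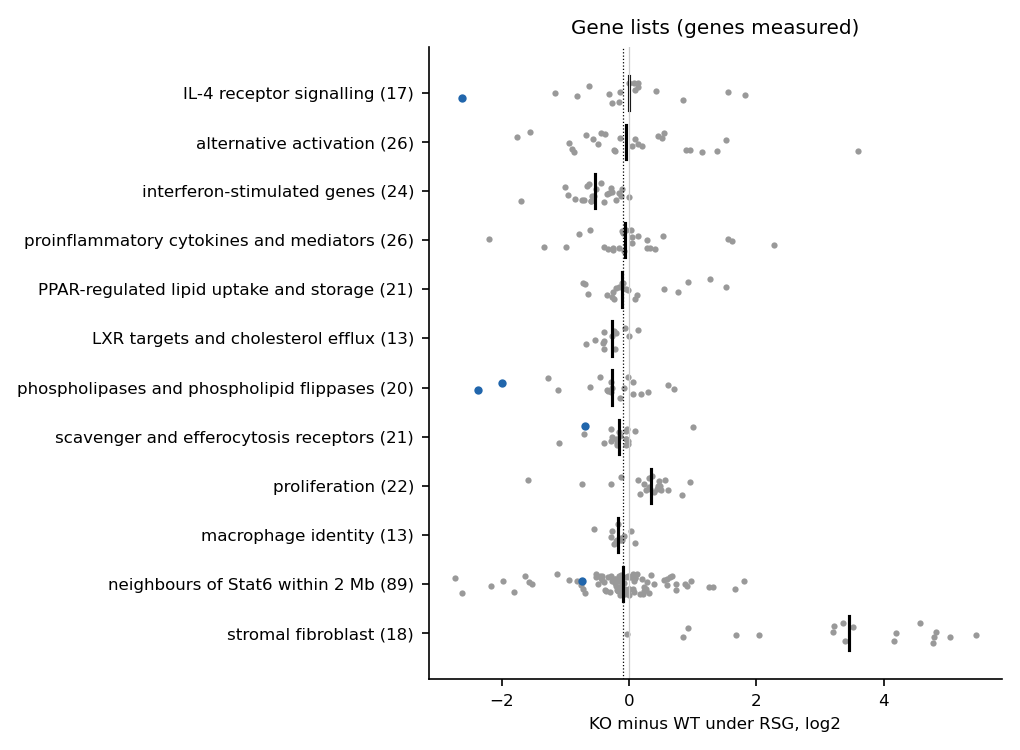
KO minus WT under RSG on the log2 scale (x axis) for the genes of 12 lists (dots; called genes in blue), with the median of each list (bar), the median of all genes (dotted line) and the number measured in brackets. Interferon-stimulated genes lie to the left of 0 and most stromal fibroblast genes to the right, with no called gene in either list.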

How the data were processed

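Total RNA of bone marrow-derived macrophages from 24 cultures of 6 mice, in 8 groups of 3, was measured on Affymetrix mouse arrays, each culture on its own array. The authors deposited linear ratios in a single table. The methods describe GC-RMA summaries, per-chip scaling to the median in GeneSpring and per-gene division by the median across chips; a further division by the vehicle control is named there but is not carried by the values. Of the tested probe sets 38889 had a median ratio of 1 (tolerance 0.001), and the other 6148 had a lower one, for a reason not given in the sources used here. Division by the median removes levels, so signal over background is unknown. Ratios ran from 0.01 to 1949.689, and 0 called probe sets held the lowest value.

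Log2 ratios of 45037 probe sets, without 64 controls, were fitted with limma 3.58.1 in R 4.3.3 (lmFit, and eBayes without a trend, since a mean ratio is no level). All 24 arrays entered in 8 groups, with 16 residual degrees of freedom. Tests were two-sided, with Benjamini-Hochberg adjustment over all probe sets. The labels name separate mice, so the arrays within a group come from different mice. The p-values rest on the spread within groups, pooled over all 8 groups. This pool includes arrays outside the comparison, from the same mice under other treatments. It is not the spread of the compared arrays alone, whose own fit had 4 residual degrees of freedom. The compared genotypes share no mouse, and over 36 pairs of arrays from the same mouse the correlation of deviations averaged 0.0106 (-0.0229 to 0.0462).

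Symbols were read from GEO's platform annotation (34945 probe sets with 1 symbol, 932 with several, 9160 with none; 18193 genes), and 34741 matched RefSeq (GRCm38.p6) by identifier. In list counts 1 probe set stood for a gene. By rule the text named Stat6, 13 measured genes of the study's text, the 12 largest called changes each way without overlap, up to 4 called members of each list and the 8 largest calls each way for dependence on RSG; other genes were named after their values were seen. The comparison and the 29 lists were chosen with earlier results of these data known. The fits were tested on simulated data. There, 14%, 38%, 44% and 58% of probe sets changed 1.5-, 2-, 4- and 8-fold were called, with 50 probe sets at each size. Many changes of these sizes were thus missed, and 6 of the 83 calls there fell on probe sets that had not been changed. Alternatives were the variance trend, fewer arrays in the fit, the methods' t-test, quantile normalization, centring, only probe sets with a median of 1, the mouse as a block, another probe set per gene, and leaving out arrays or mice. Leaving out the 2 stromal-high arrays was chosen after seeing the data.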

Additional observations from a re-analysis of the deposited data

Results flagged for a closer look

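The genotype difference under RSG without IL-4 was tested against that with IL-4. By limma the effects differed for 17 of the genes taken by the naming rule, each on the probe set that stood for it. Over all probe sets 5041 were called (11.2%). Many of the named genes were taken for their difference under RSG without IL-4, which also enters this test. Their number is thus no independent support. Values are the effect without IL-4 minus that with it, on the log2 scale. Positive values were found for Pparg (1.80), Fabp4 (2.10), Cd36 (1.80), Arg1 (6.69), Mrc1 (1.96), Scd1 (4.10), Fbxo32 (3.13), Tank (3.01), Tspan15 (2.94), Atp6v0d2 (1.42), Ptx3 (4.35) and F3 (3.65). Negative values were found for Alox15 (-4.70), Tacr3 (-4.84), H2-K1 (-0.82), Pttg1 (-1.59) and Dgka (-0.73). The adjusted p values lay between 1.04e-06 for Fbxo32 and 0.0486 for H2-K1. Further genes of the text that lie outside that rule passed as well, among them Spop (1.06), Cd274 (0.86) and Wars (0.90).

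The genotype difference under RSG also differed from that in vehicle without IL-4 for 5 probe sets, by 7.55 for Ptx3, 4.90 for F3, -4.67 for Sema4b, 8.65 for 1418476_at and 9.42 for 1460208_at, with adjusted p between 0.00221 and 0.0325 by limma. When an array or mouse was left out, the calls were lost in 6 of 12 cases for Ptx3, 10 for F3 and 4 for Sema4b.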

How the results depend on the processing

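The 45 calls of the genotype difference under RSG moved with the fit. The 12 arrays without IL-4 gave 13 calls, the 6 compared arrays alone 0 (2951 at an unadjusted p) and the methods' t-test 2 (3518 before adjustment). Quantile normalization gave 90, 39 higher and 51 lower in KO, and centring of the arrays 46, 18 higher and 28 lower, against 12 and 33 without it. Leaving out 1 array or mouse gave 14 to 59 calls (14 without mouse 6), and leaving out the 2 stromal-high arrays 25; 14 of the 45 were called with each of the 6 arrays left out. None of the 45 was called in every setting, and 7 were called in all but the t-test and the compared arrays alone. The 5 calls for dependence on RSG became 1 on the arrays without IL-4, 16 with quantile normalization, 0 to 9 with 1 array or mouse left out and 3 without the stromal-high arrays. The 5041 calls for the difference between the genotype effects without and with IL-4 became 3086 to 4779 with 1 array or mouse left out (3086, 3351 and 3333 without mouse 2, 3 and 4). With the mouse as a random replicate block 48, 5 and 5113 probe sets were called; with a fixed block 5 were called for dependence on RSG, 4 of them among the main 5, and no fixed block could be fitted for the genotype difference, whose groups share no mouse. The variance trend gave 47 calls of the genotype difference and probe sets with a median of 1 gave 54. The 6 called list genes were also 6 with the other probe set per gene. Of the planned repeats for single named probe sets 801 kept their side of the threshold, 466 lost their call and 7 gained one, and no direction of a called value turned. The arrays without IL-4 cannot give the comparison with IL-4, so that alternative was not run. The cause was not tested.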
